A study of Mus musculus with 15 samples.

Results

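The genes described here are those of glycolysis and glycogen metabolism, taken as 41 symbols that run from glucose entry through pyruvate to lactate, with the pyruvate dehydrogenase switch, glycogen synthesis and breakdown, and the pentose phosphate branch. They were found by their symbols in a table of 54532 rows and matched 42 rows, since Aldoa has a second, separate row. Of these 42 rows, 41 passed the filter on low counts, as did 15590 rows of the whole table. Slc2a4, the insulin-responsive glucose transporter GLUT4 of muscle and fat, had 65 reads over 15 libraries and was not tested.

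RNA was sequenced from mesenchymal stem/stromal cells of mouse bone marrow (BM-MSCs, strain C57BL/6), bought as primary cells and used at early passages. All groups, the control included, had received 5 Gy of ionizing radiation and were collected after 48 h. The 5 groups of 3 libraries were Gel/Laponite@IL-12, Gel/Laponite, Gel/IL-12, Gel and IR-Con. Gel is an alginate hydrogel carrying the cell-adhesive RGD peptide, Laponite is a clay nanoplatelet, and Gel/Laponite@IL-12 holds the cytokine IL-12 adsorbed on Laponite. IR-Con cells were irradiated and received no biomaterial, so that no group shows the effect of radiation itself. The labels do not say whether the 3 libraries of a group came from separate cultures, and the p-values measure the spread between these libraries, which may be technical.

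Glycolysis splits glucose into pyruvate and yields ATP without oxygen. Pyruvate is then reduced to lactate and exported, or enters mitochondria through pyruvate dehydrogenase, which the PDK kinases switch off. Several steps are catalyzed by isozymes from separate genes, and many of these genes are known targets of hypoxia-inducible factor (HIF). Glycogen stores glucose as a branched polymer, and the pentose phosphate pathway draws glucose 6-phosphate off to make NADPH and ribose. BM-MSCs live in a marrow of low oxygen and are known to rely on glycolysis.

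Library totals ran from 15147272 to 17818982 counts in the gels and from 14506459 to 16568349 in IR-Con. IR-Con replicate 3 stood apart, with 1.91% of its counts from mitochondrial genes and 23143 genes detected. The other 14 libraries had 2.49% to 3.06% and 20281 to 22706 genes. The median SD of log2 CPM (read counts scaled to library size, itself adjusted by TMM) over all genes was 0.0832 to 0.0872 in the gels and 0.213 in IR-Con. Processed pseudogenes took 1.12% to 1.22% of counts in the gels and 0.795% to 0.854% in IR-Con. That share includes Gm13394, a copy of Gapdh described further on. Its group means were 1358 to 1565 CPM in the gels and 434 CPM in IR-Con. Malat1, a nuclear RNA, took 0.0568% to 0.182% in the gels and 0.356% to 0.542% in IR-Con. All 18 mesenchymal marker genes had 100 reads or more, with a summed level of 18960 to 19990 CPM in the gels and 22580 to 31590 CPM in IR-Con. Of 15 macrophage and blood cell markers, 8 had under 10 reads in all libraries together, among them Ptprc and Adgre1, and the list summed to 58.8 to 67.6 CPM in the gels and 27.0 to 34.5 CPM in IR-Con, mostly from Cd14. The part of these differences in the results that follow was not tested.

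The genes of glucose breakdown were higher in the gels than in IR-Con at nearly every step. Together, the 42 rows took 1.37% to 1.39% of all counts in Gel/Laponite@IL-12, 1.41% to 1.44% in Gel/Laponite, 1.35% to 1.36% in Gel/IL-12, 1.24% in Gel and 0.699% to 0.781% in IR-Con. Averaging the 4 gel groups and setting them over IR-Con, called the gel effect here, 34 of 41 rows rose and 6 fell at an adjusted p under 0.05 (edgeR's quasi-likelihood test), and Pfkm was not called. Of all 15590 genes, 27.4% were called higher and 27.6% lower in that comparison. The median log2 fold change was 0.69 over the 41 rows and -0.01 over all genes. A change of at least 1.5-fold was called higher for 24 rows and lower for 2, against 10.8% and 10.3% of all genes. All 12 gel libraries lay above all 3 IR-Con libraries for 28 rows and below them for 3, which held for 18% and 15.6% of all genes. In bulk samples such as these, a different mix of cells and a different amount of RNA per cell cannot be told apart.

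**Figure D1:**
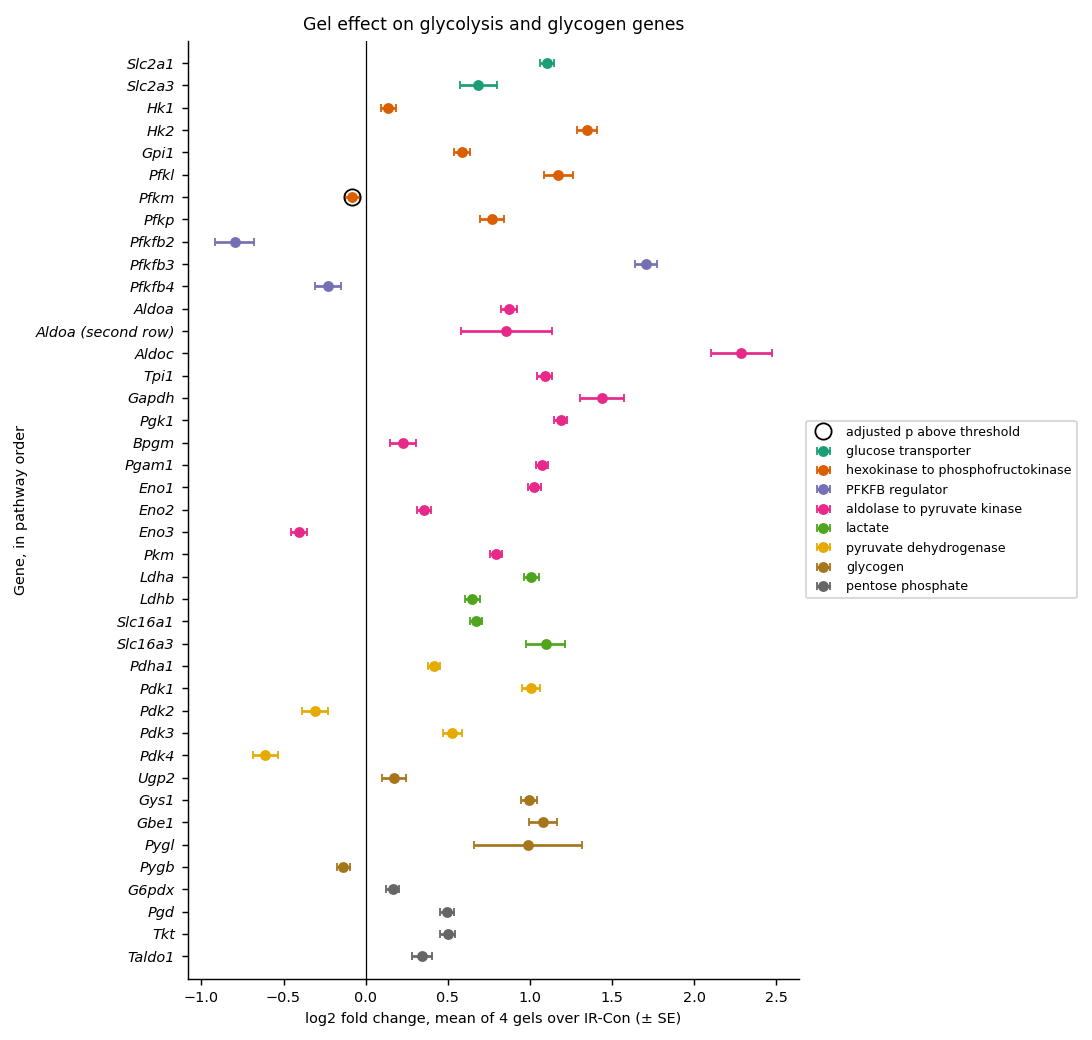
Gel effect on each tested row, as the log2 fold change of the averaged gel groups over IR-Con (points, with bars for 1 SE), in pathway order from glucose transporters at the top to the pentose phosphate branch, coloured by role. The points run from -0.80 (Pfkfb2) to 2.29 (Aldoc), with 34 of 41 right of 0, and the ring marks Pfkm, which was not called.

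The transcripts of both glucose transporters that were tested rose, as did 27.4% of all genes. Slc2a1 encodes GLUT1, the basal glucose transporter of most cells. It had 132 CPM in the lowest gel library, a median of 150 and 165 in the highest, against 64.2, 70.1 and 72.5 CPM in IR-Con. Every gel library was above every IR-Con library, and the gel effect was 1.10 on the log2 scale (SE 0.04, adjusted p = 1.63e-14), a 2.15-fold change. Slc2a3, the high-affinity transporter GLUT3, lay at 7.50, 8.90 and 9.90 CPM (lowest, median and highest gel library), against 6.07, 5.89 and 4.31 CPM in IR-Con. These ranges did not overlap either, and Slc2a3 rose by 0.69 (SE 0.11, adjusted p = 2.96e-05). Per length of transcript, Slc2a1 was the main transporter at 37.8 RPKM (reads per length of exon, scaled to library size) over all 15 libraries, with Slc2a3 at 1.12 and Slc2a4 at 0.0770 RPKM. Slc2a4 had 1 to 8 reads in each gel library and 13, 0 and 4 in IR-Con.

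Of the 6 genes from hexokinase to phosphofructokinase, which trap glucose as a phosphate and commit it to breakdown, 5 rose (27.4% of all genes). Hk2, the inducible hexokinase that binds mitochondria, had 90.0, 94.2 and 106 CPM in the lowest, median and highest gel library, against 39.7, 33.4 and 39.9 CPM in IR-Con. The groups did not overlap, and Hk2 rose 2.55-fold (log2 1.35, SE 0.06, adjusted p = 1.18e-13). Hk1, the housekeeping hexokinase, rose 1.10-fold (log2 0.14, SE 0.05, adjusted p = 0.0123) with overlapping libraries, and was not called without IR-Con replicate 1 (log2 0.08, adjusted p = 0.0983). On the RPKM scale the hexokinases therefore stood closer to each other in the gels, where Hk2 averaged 15.8, 16.6, 16.7 and 15.4 and Hk1 18.4, 19.1, 17.6 and 17.4 in Gel/Laponite@IL-12, Gel/Laponite, Gel/IL-12 and Gel. In IR-Con, Hk2 averaged 6.31 RPKM and Hk1 16.5 RPKM. These values used merged exon length (8532 bases for Hk1 and 5969 for Hk2), which understates genes with many transcripts.

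The isozymes of phosphofructokinase differed in the same way. Pfkl, the liver-type subunit and the most abundant per length at 47.3 RPKM, rose 2.26-fold (log2 1.17, SE 0.09, adjusted p = 1.69e-08). Pfkp, the platelet-type subunit, rose 1.70-fold and averaged 3.13 RPKM over all libraries, on a merged exon length of 13401 bases. Pfkm, the muscle-type subunit, had 75.2, 78.7 and 84.1 CPM in the lowest, median and highest gel library, against 79.8, 81.2 and 91.2 CPM in IR-Con. The ranges overlapped, and Pfkm was the only tested row that was not called (log2 -0.08, SE 0.05, adjusted p = 0.142). Gpi1, which turns glucose 6-phosphate into fructose 6-phosphate, rose 1.5-fold (log2 0.59).

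The PFKFB enzymes make and remove the small molecule that activates phosphofructokinase, and they moved in opposite directions. Pfkfb3, the isozyme with the strongest bias towards making the activator, had 48.4, 51.1 and 56.2 CPM in the lowest, median and highest gel library, against 17.4, 14.8 and 14.7 CPM in IR-Con. The lowest gel library was well above the highest control, and Pfkfb3 rose 3.27-fold (log2 1.71, SE 0.07, adjusted p = 1.13e-14). Pfkfb2, the heart-type isozyme, had 5.40, 6.89 and 8.89 CPM in the gels, against 12.4, 13.1 and 10.8 CPM in IR-Con. It lay below IR-Con in every gel library and fell to 0.576 of the IR-Con level (log2 -0.80, SE 0.12, adjusted p = 8.54e-06). Pfkfb4 fell by 0.23 on the log2 scale (adjusted p = 0.0216), with overlapping libraries, and was not called without IR-Con replicate 1 (adjusted p = 0.067) or without IR-Con replicate 3 (log2 -0.14, adjusted p = 0.171), nor without the filter on low counts (adjusted p = 0.0558). Per length, Pfkfb3 averaged 6.64 to 6.92 RPKM in the gel groups and 2.07 RPKM in IR-Con, while Pfkfb4 averaged 3.89 to 4.25 RPKM in the gel groups and 4.73 RPKM in IR-Con.

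From aldolase to pyruvate kinase, 11 of 12 rows rose and Eno3 fell, against 27.4% and 27.6% of all genes. The role's median log2 fold change was 0.95. Aldoc, the brain-type aldolase, had the largest gel effect of all rows, with 4.90, 5.74 and 7.03 CPM in the lowest, median and highest gel library, against 1.21, 0.832 and 1.60 CPM in IR-Con. It rose 4.88-fold without overlap (log2 2.29, SE 0.19, adjusted p = 1.24e-09), but at 1.53 RPKM it remained a minor aldolase beside Aldoa at 420 RPKM, which rose 1.83-fold (log2 0.87). The second Aldoa row had 328 reads in all. It rose by 0.86 (SE 0.28, adjusted p = 0.0126), and was not called without IR-Con replicate 2 (log2 0.66, adjusted p = 0.0739).

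The most abundant enzymes of the pathway lay in this stretch. Pgk1, which makes the first ATP of the payoff phase, had the highest level of any single member row per length, 611 RPKM, and rose 2.28-fold (log2 1.19, SE 0.04, adjusted p = 6.77e-16). Tpi1, which interconverts the triose phosphates, rose 2.13-fold (382 RPKM), Pgam1, the phosphoglycerate mutase, 2.11-fold (302 RPKM), and Pkm, which holds both spliced forms of pyruvate kinase PKM1 and PKM2, 1.73-fold (493 RPKM). Bpgm, which makes the hemoglobin ligand of red cells, rose 1.17-fold (log2 0.23, adjusted p = 0.0226), and was not called without IR-Con replicate 2 (log2 0.15, adjusted p = 0.157).

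The enolases moved apart by isozyme. Eno1, the form of most tissues, rose 2.04-fold (log2 1.03, SE 0.04), and Eno2, the neuronal form, 1.28-fold (log2 0.36, SE 0.04). Eno3, the muscle form, had 51.9, 56.8 and 61.4 CPM in the lowest, median and highest gel library, against 70.0, 80.0 and 74.8 CPM in IR-Con. Every gel library was below every IR-Con library, and Eno3 fell by 0.40 on the log2 scale (SE 0.05, adjusted p = 5.49e-07). Of 5 muscle cell markers, 4 (Myog, Myod1, Ckm and Myh4) had under 10 reads in all libraries together.

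**Figure D2:**
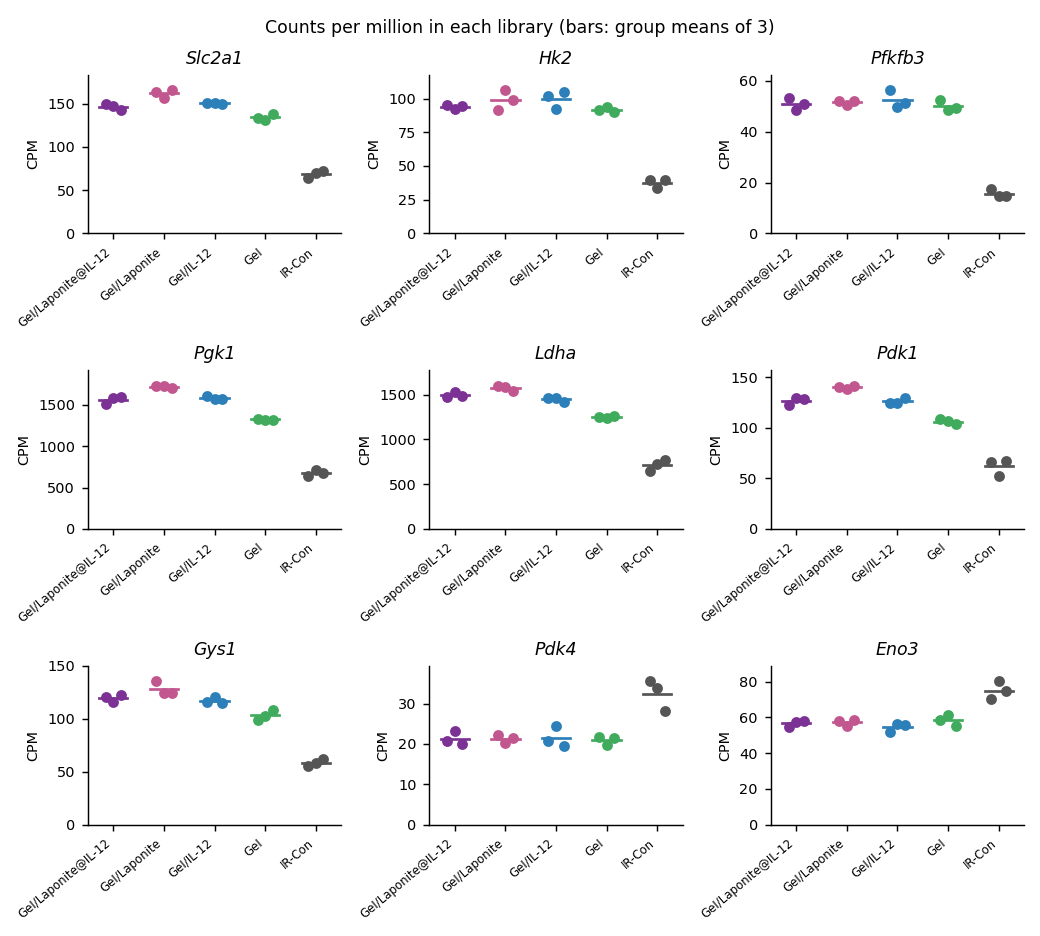
CPM (linear axes from 0) of 9 genes in each of 15 libraries, with a bar at each group mean (n = 3). Slc2a1, Hk2, Pfkfb3, Pgk1, Ldha, Pdk1 and Gys1 lie higher in all 12 gel libraries than in the 3 IR-Con libraries, and Pdk4 and Eno3 lie lower.

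Gapdh, which oxidizes glyceraldehyde 3-phosphate and is often used as a reference gene, has many near-identical copies in the genome. The Gapdh row held only 10459 reads over the 15 libraries, while 31 other genes of the annotation that share at least 10% of its windows of 50 bases held 324782. Of those reads, 309440 lay on a single processed pseudogene, Gm13394 on chromosome 2. Its 1000 annotated bases aligned without gaps to coding positions 1 to 1000 of Gapdh (1002 bases with the stop codon), with 1 mismatch, A346C, counted from 1 at the first base of the start codon. The stretch around that base is shown because it is the one place where the aligned sequences differ (the capital letter), first for Gapdh at chr6:125162996-125163036, minus strand, then for Gm13394 at chr2:28934244-28934284, minus strand, both on GRCm38.
Gapdh: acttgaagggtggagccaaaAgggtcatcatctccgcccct
Gm13394: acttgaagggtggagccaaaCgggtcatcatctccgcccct
Reads from this stretch of coding sequence that miss the mismatch cannot be told apart between the genes, and how the authors' counting placed them is not given in the sources used here.

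The Gapdh row and the summed rows moved the same way. Gapdh alone had 38.2, 47.5 and 60.2 CPM in the lowest, median and highest gel library, against 20.9, 14.2 and 19.4 CPM in IR-Con, a rise of 1.44 on the log2 scale (SE 0.13, adjusted p = 2.49e-07). Gm13394 averaged 1530 ± 15.5 CPM with Gel/Laponite@IL-12, 1565 ± 27.5 in Gel/Laponite, 1494 ± 51.8 in Gel/IL-12, 1358 ± 27.2 in Gel and 434 ± 71.7 CPM in IR-Con (SD, n = 3 each), and rose by 1.77 (SE 0.07). Gapdh with its copies averaged 1656 ± 2.46, 1675 ± 26.1, 1611 ± 45.7 and 1476 ± 38.6 CPM across Gel/Laponite@IL-12, Gel/Laponite, Gel/IL-12 and Gel, against 483 ± 70.2 CPM in IR-Con, and rose by 1.73 (SE 0.06, adjusted p = 1.55e-15).

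**Figure D3:**
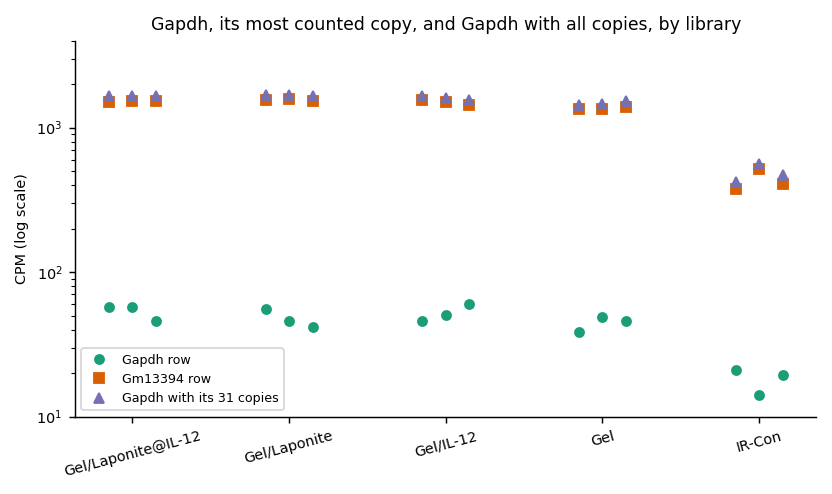
CPM (log axis) of the Gapdh row, of the processed pseudogene Gm13394 and of Gapdh summed with its 31 copies, in each of 15 libraries. The Gapdh row lies between 14.2 and 60.2 CPM, and the other points lie between 378 and 1693 CPM, each set lowest in IR-Con.

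In Gapdh, 74.9% of windows were found in no other gene. Pgk1, Pgam1, Eno1 and Pkm shared more of their sequence than Gapdh, but their copies held fewer reads. In Eno1, 74.0% of windows were found in no other gene, and Eno1b (57077 reads) and Gm4735 (56539 reads) hold most of the shared part. With both added, Eno1 rose by 0.94 (SE 0.05, adjusted p = 4.3e-13). Only 46.1% of the windows of Pgk1 and 63.8% of those of Pgam1 were unique, but their copies held few reads, 3005 and 1920 in all beside 332099 and 145048. Pkm was unique in 74.2% of windows. G6pdx was unique in 83.1%, and its overlapping neighbour Ikbkg held 25469 reads. No member's gel effect changed its call or sign when copies were added, while Gys1 lost its call for the Laponite effect described further on.

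The transcripts of the enzymes and transporters of lactate were higher in the gels, with 4 of 4 members called (27.4% of all genes). Ldha, the lactate dehydrogenase subunit that favours lactate formation, rose 2.01-fold (log2 1.01, SE 0.04, adjusted p = 6.23e-14). Ldhb, the heart-type subunit, had 87.9, 90.9 and 94.8 CPM in the lowest, median and highest gel library, against 53.4, 59.4 and 61.5 CPM in IR-Con. Its libraries did not overlap between the groups, and the rise was 1.57-fold (log2 0.65, SE 0.05, adjusted p = 2.04e-10). Slc16a3 encodes MCT4, the lactate exporter of glycolytic cells, and had 35.7, 41.6 and 48.1 CPM in the gels, against 14.6, 17.0 and 27.4 CPM in IR-Con. IR-Con replicate 3 was the highest of the controls but still below every gel library, and Slc16a3 rose 2.14-fold (log2 1.10, SE 0.12, adjusted p = 5.72e-07). Slc16a1, the monocarboxylate transporter MCT1, rose 1.60-fold (log2 0.67).

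At the entry of pyruvate into mitochondria, the 4 kinases that switch pyruvate dehydrogenase off moved apart. Pdk1, the HIF-responsive kinase, had 104, 127 and 142 CPM in the lowest, median and highest gel library, against 66.0, 52.9 and 66.9 CPM in IR-Con. All gel libraries were above IR-Con, and Pdk1 rose 2.01-fold (log2 1.01, SE 0.06, adjusted p = 3.19e-12). Pdk4, the kinase induced by fasting and fatty acids, had 19.6, 21.1 and 24.4 CPM in the gels, against 35.5, 33.9 and 28.1 CPM in IR-Con. Its levels lay below IR-Con in all gel libraries, and it fell by 0.61 on the log2 scale (SE 0.08, adjusted p = 8.06e-07). Pdk3 rose 1.44-fold (log2 0.53), and Pdk2 fell by 0.31 (SE 0.08, adjusted p = 0.00277) with overlapping libraries. Pdk3 was the most abundant kinase per length, at 21.1 RPKM over all libraries, followed by Pdk1 at 14.5, Pdk2 at 8.59 and Pdk4 at 6.71 RPKM. These values used merged exon length (7779 bases for Pdk1 and 2561 for Pdk3), which understates genes with many transcripts. In CPM, the mean of Pdk1 was above that of Pdk3 in every group. Pdha1, the catalytic subunit of the dehydrogenase itself, rose 1.33-fold (log2 0.42).

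Of the 5 glycogen genes, 4 rose and Pygb fell, against 27.4% and 27.6% of all genes. Gys1, the glycogen synthase of muscle and most other tissues, rose 1.99-fold (log2 1.00, SE 0.05, adjusted p = 4.35e-13). Gbe1, the branching enzyme, had 22.4, 28.6 and 32.1 CPM in the lowest, median and highest gel library, against 10.7, 15.7 and 12.7 CPM in IR-Con. There was no overlap, and Gbe1 rose 2.12-fold (log2 1.08, SE 0.09, adjusted p = 1.02e-09). Pygb, the brain-type glycogen phosphorylase that releases glucose units, had 99.0, 106 and 112 CPM in the gels, against 112, 120 and 117 CPM in IR-Con. The groups touched at 112 CPM, and Pygb fell by 0.14 (SE 0.04, adjusted p = 0.00575), but was not called without the filter on low counts (log2 -0.10, adjusted p = 0.125). The liver-type phosphorylase Pygl had 312 reads in all and rose by 0.99 (SE 0.33, adjusted p = 0.0148), but was not called without IR-Con replicate 1 (adjusted p = 0.0602) or without IR-Con replicate 3 (adjusted p = 0.0646). Ugp2, which makes UDP-glucose, the donor for glycogen synthesis, rose by 0.17 (SE 0.07, adjusted p = 0.0469). Without IR-Con replicate 3 its log2 fold change was 0.04 (adjusted p = 0.533), and it was also not called without IR-Con replicate 2 (adjusted p = 0.0786) or without any 1 of 8 gel libraries.

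Genes of the pentose phosphate branch had smaller changes. All 4 members were called higher (27.4% of all genes), none by 1.5-fold (10.8%), with a median of 0.42 on the log2 scale. Tkt, the transketolase of the non-oxidative arm, had 197, 213 and 220 CPM in the lowest, median and highest gel library, against 140, 142 and 166 CPM in IR-Con. The ranges were separate, and Tkt rose 1.41-fold (log2 0.50, SE 0.05, adjusted p = 1.63e-08). G6pdx, the NADPH-making first enzyme, had 199, 207 and 219 CPM in the gels, against 177, 200 and 182 CPM in IR-Con. IR-Con replicate 2 reached the range of the gels, and the rise was 1.12-fold (log2 0.17, SE 0.04, adjusted p = 0.00147). Pgd, the following oxidative enzyme, rose 1.41-fold, and Taldo1, transaldolase, rose 1.27-fold.

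Each gel was also compared with IR-Con on its own. These 4 comparisons share the same 3 IR-Con libraries and are given side by side. In Gel/Laponite@IL-12, 30 rows rose and 5 fell (23% and 21.5% of all genes). In Gel/Laponite, 32 rose and 4 fell (23.2% and 21.7%). In Gel/IL-12, 32 rose and 5 fell (24% and 22.6%). In Gel, 30 rose and 4 fell (22.9% and 21.8%). The medians over the 41 rows were 0.69, 0.71, 0.75 and 0.68 on the log2 scale. Pgk1 rose by 1.21, 1.35, 1.23 and 0.97 in Gel/Laponite@IL-12, Gel/Laponite, Gel/IL-12 and Gel, and Pfkfb3 by 1.70, 1.72, 1.74 and 1.68. Aldoc rose by 2.24, 2.37, 2.45 and 2.08. Pfkfb2, Eno3 and Pdk4 fell in every one of these comparisons, and Pfkm was called in none.

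The gels varied less than IR-Con for these genes too, with a median SD of log2 CPM of 0.0344 to 0.0460 in the gel groups and 0.140 in IR-Con. A fit that gave IR-Con a weight of its own (limma voom) called 29 of the 41 rows higher and 3 lower for the gel effect, against 16% and 16.5% of all genes. The rows it no longer called were Hk1, Bpgm, Ugp2, Pygl and the second row of Aldoa among the risen, and Pfkfb4, Pdk2 and Pygb among the fallen.

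Among the 4 gels the differences were far smaller. The Laponite effect, the mean of the gels with Laponite over the mean of those without, was called higher for 6 rows and lower for 0, against 0.513% and 0.346% of all genes. The 6 were Pgam1 (log2 0.18, SE 0.03, adjusted p = 0.0023), Pgk1 (0.18, SE 0.03, adjusted p = 0.00548), Ldha (0.19, SE 0.04, adjusted p = 0.00955), Tpi1 (0.18, SE 0.04, adjusted p = 0.0157), Pdk1 (0.20, SE 0.05, adjusted p = 0.0332) and Gys1 (0.17, SE 0.04, adjusted p = 0.0467). The fold changes were 1.12 to 1.15. At an unadjusted p under 0.05 there were 17 rows, beside 1007 of all 15590 genes. A positive value was found for 31 of 41 rows, beside 8110 of all genes, with a median of 0.07 (all genes 0.00). Split by IL-12, the median log2 fold change over the 41 rows was 0.01 for Laponite in the presence of IL-12 and 0.13 in its absence. With IL-12, 0 rows had an unadjusted p under 0.05 in edgeR, beside 744 of all 15590 genes. Without IL-12, 19 rows did, beside 935 of all genes. The test of that difference is the interaction given further on, which called 0 rows in edgeR.

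The 6 genes are given library by library. Pgk1, the kinase of the payoff phase, had 1503, 1579 and 1593 CPM with Gel/Laponite@IL-12, 1723, 1726 and 1698 in Gel/Laponite, 1599, 1572 and 1565 in Gel/IL-12, 1332, 1321 and 1319 in Gel, and 636, 711 and 678 CPM in IR-Con. Gel/Laponite was the highest group and Gel the lowest of the gels, while both gels that hold IL-12 lay between them and overlapped each other. Ldha had 1470, 1533 and 1488 CPM with Gel/Laponite@IL-12, 1598, 1590 and 1546 in Gel/Laponite, 1466, 1466 and 1424 in Gel/IL-12, 1247, 1238 and 1265 in Gel, and 647, 727 and 770 CPM in IR-Con. Gel/Laponite was again the highest and Gel the lowest of the gels, and no pair of groups overlapped.

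Pgam1 had 682, 710 and 700 CPM with Gel/Laponite@IL-12, 722, 740 and 718 in Gel/Laponite, 662, 655 and 656 in Gel/IL-12, 592, 603 and 597 in Gel, and 305, 321 and 324 CPM in IR-Con. No pair of these groups overlapped. Tpi1 had 1186, 1255 and 1190 CPM with Gel/Laponite@IL-12, 1309, 1301 and 1250 in Gel/Laponite, 1193, 1163 and 1171 in Gel/IL-12, 1029, 1033 and 1029 in Gel, and 499, 565 and 589 CPM in IR-Con. The 3 Gel libraries lay within 4 CPM of each other and below all other gels.

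Pdk1 had 123, 130 and 129 CPM with Gel/Laponite@IL-12, 141, 139 and 142 in Gel/Laponite, 125, 125 and 130 in Gel/IL-12, and 109, 107 and 104 in Gel. Gys1 had 120, 116 and 123 CPM with Gel/Laponite@IL-12, 135, 124 and 125 in Gel/Laponite, 116, 120 and 115 in Gel/IL-12, 98.9, 103 and 109 in Gel, and 54.9, 58.5 and 62.1 CPM in IR-Con. For both genes, every Gel library was below every library of the other gels.

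The calls of the Laponite effect were marginal for some of these genes. Of the 6, Pdk1 and Gys1 were not called when any 1 of the 12 gel libraries was left out. Tpi1 was lost in 9 of these fits and Ldha in 4, while Pgam1 and Pgk1 stayed called in all 12. The number of called rows in these fits was 2 to 4 (0.243% to 0.331% of all genes). Gys1 was also not called with DESeq2 size factors (adjusted p = 0.0554), without the filter on low counts (adjusted p = 0.076), with copies added (adjusted p = 0.055) or with the replicate number as a block (adjusted p = 0.0738). In a fit on the 12 gel libraries alone, in which the spread of IR-Con played no part, 18 rows were called higher (2.91% of all genes).

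Of the pairs of gels, Gel/Laponite over Gel differed most. In it 8 rows rose and 0 fell, against 0.263% and 0.0641% of all genes. They were Pgk1 (1.30-fold, adjusted p = 0.00024), Pdk1 (1.32-fold, adjusted p = 0.00392), Ldha (1.26-fold, adjusted p = 0.0024), Tpi1 (1.25-fold, adjusted p = 0.00419), Gys1 (1.24-fold, adjusted p = 0.0135), Eno2 (1.23-fold, adjusted p = 0.00666), Pgam1 (1.22-fold, adjusted p = 0.00237) and Slc2a1 (1.20-fold, adjusted p = 0.0177). Eno2 had 148, 148 and 149 CPM with Gel/Laponite@IL-12, 168, 174 and 166 in Gel/Laponite, 157, 155 and 156 in Gel/IL-12, 140, 137 and 137 in Gel, and 117, 112 and 129 CPM in IR-Con. Slc2a1 had 150, 148 and 143 CPM with Gel/Laponite@IL-12, 164, 157 and 165 in Gel/Laponite, 151, 151 and 150 in Gel/IL-12, and 133, 132 and 138 in Gel. For both, Gel/Laponite was above all other gels and Gel below them, without overlap. Leaving out any 1 of the 3 Gel or the 3 Gel/Laponite libraries left 4 to 6 rows called, against 8 (0.263% of all genes) with all libraries.

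Gel/Laponite@IL-12 over Gel was called higher for 3 rows (0.205% of all genes), namely Pgam1 (1.17-fold, adjusted p = 0.0173), Pgk1 (1.18-fold, adjusted p = 0.0185) and Ldha (1.20-fold, adjusted p = 0.025). No row was called in it when any 1 of the 6 libraries was left out. Gel/IL-12 over Gel called 0 rows in edgeR (0.0128% of all genes), with 14 at an unadjusted p under 0.05 (432 of all 15590 genes). DESeq2 called 1 row (0.0449% of all genes) and limma voom 12 (0.43%). Pgk1 was nearest in edgeR, at 1.19-fold (log2 0.25, SE 0.05, adjusted p = 0.0626). Gel/Laponite@IL-12 over Gel/Laponite called 0 rows in edgeR, where 0.00641% of all genes were called higher and 0% lower. It had 4 rows at an unadjusted p under 0.05 (428 of all 15590 genes), while DESeq2 called 0 rows and limma voom 2 lower. Gel/Laponite over Gel/IL-12 called 0 (0.0321% higher, 0.0192% lower), with 8 at an unadjusted p under 0.05 (604 of all 15590 genes), 1 in DESeq2 and 7 in limma voom. Gel/Laponite@IL-12 over Gel/IL-12 called 0 (0.173% higher, 0.128% lower), with 0 at an unadjusted p under 0.05 (744 of all 15590 genes) and 0 in both other tools.

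The IL-12 effect, the mean of the gels with IL-12 over the mean of those without, called 0 of 41 rows in edgeR (0.0192% of all genes higher, 0% lower). At an unadjusted p under 0.05 there were 0 rows, beside 269 of all 15590 genes, and DESeq2 and limma voom called 0. The smallest p in edgeR was that of Pfkm, with a log2 fold change of 0.08 (SE 0.04, unadjusted p = 0.061). In the fit on the 12 gel libraries alone, 2 rows were called higher (0.263% of all genes), Pgk1 (log2 0.06, adjusted p = 0.0358) and Ldha (log2 0.07, adjusted p = 0.00251). The interaction asks whether adding IL-12 changed a gene differently in the gels with Laponite than in those without. It called 0 rows in edgeR (0% of all genes), with 11 at an unadjusted p under 0.05 (631 of all 15590 genes). DESeq2 called 2 rows lower (0.0513% of all genes) and limma voom 12 lower (1.03%). The interaction values in edgeR were negative for 34 of 41 rows, beside 7796 of all 15590 genes, with a median of -0.12 (all genes 0.00). The lowest p was that of Pgk1 (log2 -0.39, SE 0.06, adjusted p = 0.0749), followed by Eno2 (log2 -0.37, SE 0.07, adjusted p = 0.153) and Pdk1 (log2 -0.40, SE 0.09, adjusted p = 0.453). With the 12 gel libraries alone, 14 rows were called lower (2.29% of all genes), Pgk1 among them at -0.39 (adjusted p = 1.42e-20). The p-values of that fit measure only the spread between the gel libraries, which may be technical.

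**Figure D4:**
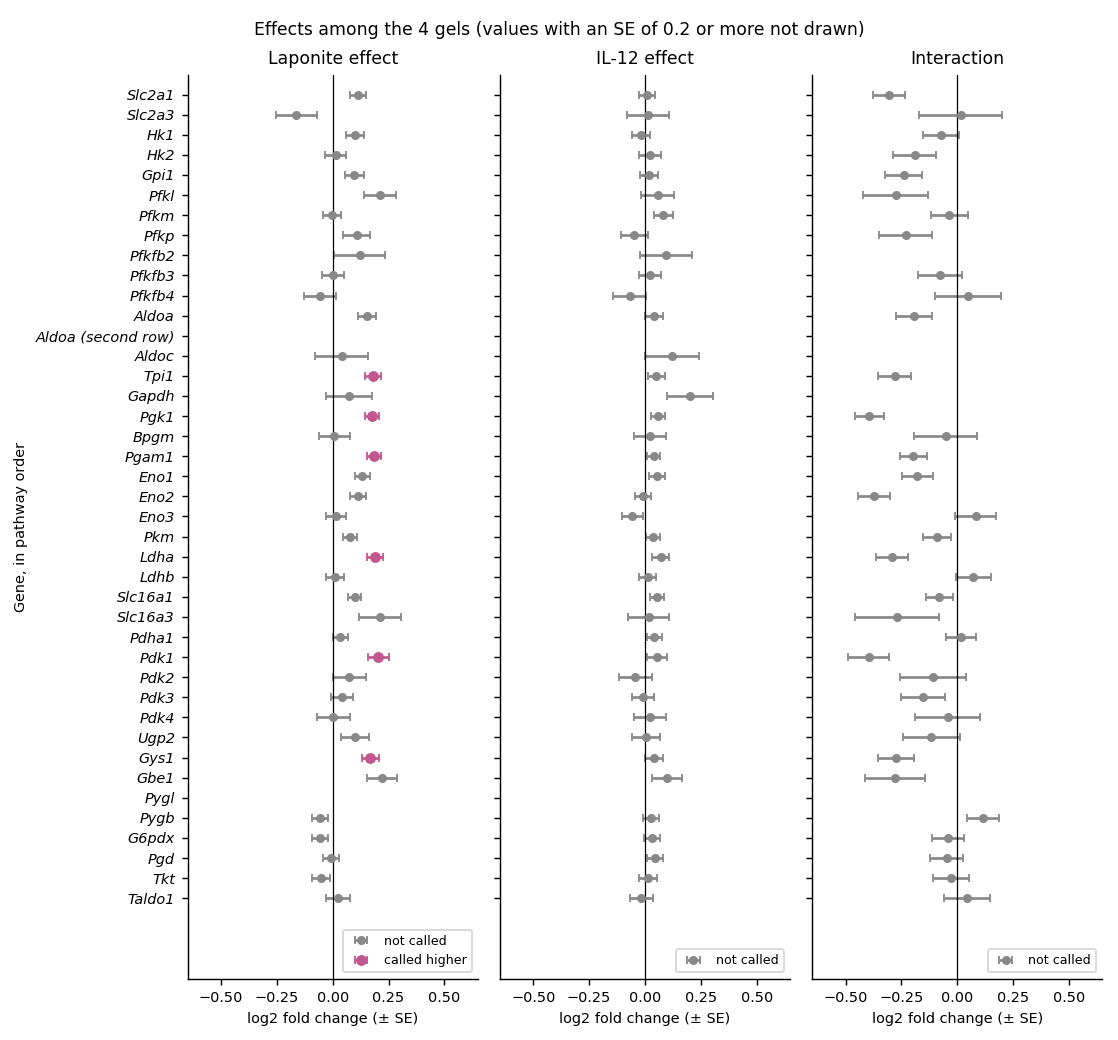
Log2 fold changes among the 4 gels (points, bars 1 SE) for the Laponite effect, the IL-12 effect and their interaction, with genes in pathway order and values of SE 0.2 or more not drawn. Coloured points are the 6 rows called higher for Laponite. The IL-12 values drawn lie near 0. Over all 41 rows, drawn or not, 34 interaction values are negative.

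The promoters of 4 of the 6 genes called for Laponite are shown because these abundant enzymes moved together. Each is the RefSeq window (GRCm38.p6) from 250 bases before to 50 bases after the annotated start, on the coding strand. Capitals mark ACGTG or GCGTG, the core letters bound by HIF, searched on both strands so that they also appear as CACGT or CACGC, with CACGTG marking an overlap of both strands. The windows are Pgk1 at chrX:106186850-106187149 (plus strand), the first of the Ldha windows at chr7:46845554-46845853 (plus strand), Pgam1 at chr19:41911621-41911920 (plus strand) and Tpi1 at chr6:124814109-124814408 (minus strand).
Pgk1: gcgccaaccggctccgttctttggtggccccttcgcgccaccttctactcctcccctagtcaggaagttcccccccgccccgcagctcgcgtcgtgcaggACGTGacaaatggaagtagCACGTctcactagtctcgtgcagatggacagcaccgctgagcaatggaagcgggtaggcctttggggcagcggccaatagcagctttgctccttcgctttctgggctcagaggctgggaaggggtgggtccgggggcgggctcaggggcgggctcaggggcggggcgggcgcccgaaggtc
Ldha: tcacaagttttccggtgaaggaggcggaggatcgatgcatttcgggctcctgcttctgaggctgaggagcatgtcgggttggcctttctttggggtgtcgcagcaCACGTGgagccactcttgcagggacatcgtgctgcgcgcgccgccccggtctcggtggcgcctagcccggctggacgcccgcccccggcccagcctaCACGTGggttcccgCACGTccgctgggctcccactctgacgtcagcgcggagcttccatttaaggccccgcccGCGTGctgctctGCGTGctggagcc
Pgam1: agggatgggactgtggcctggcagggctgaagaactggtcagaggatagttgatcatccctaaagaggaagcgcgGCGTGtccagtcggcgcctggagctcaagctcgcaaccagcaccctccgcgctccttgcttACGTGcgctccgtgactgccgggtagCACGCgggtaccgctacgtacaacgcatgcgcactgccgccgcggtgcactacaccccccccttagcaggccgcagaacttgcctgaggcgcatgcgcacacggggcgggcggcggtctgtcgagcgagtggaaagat
Tpi1: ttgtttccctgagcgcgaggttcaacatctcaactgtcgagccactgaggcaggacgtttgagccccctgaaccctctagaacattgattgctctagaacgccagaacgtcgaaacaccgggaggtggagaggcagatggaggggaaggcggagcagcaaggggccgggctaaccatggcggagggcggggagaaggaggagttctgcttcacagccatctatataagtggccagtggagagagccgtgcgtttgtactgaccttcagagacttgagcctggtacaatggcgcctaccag
The Pgk1 window held ACGTG 2 times, the Ldha window held ACGTG 3 times and GCGTG 2 times, and the Pgam1 window held ACGTG 1 time and GCGTG 2 times. The Tpi1 window held neither, nor did that of Gys1, and Pdk1 held GCGTG 2 times in its first window. A window was found for 39 of the 41 members, all but Slc2a3 and Slc2a4. Of these, 21 (53.8%) held ACGTG, against 28.7% of 10691 tested genes and 21.8% of 27025 genes with a window. GCGTG was held by 27 members (69.2%), against 54.8% and 35.2%, and either motif by 33 members (84.6%), against 66.3% and 46.7%. A gene counted once if any of its windows matched, and the members had 57 windows for 39 genes, against 13679 for 10691 tested genes and 32851 for 27025 genes in all. Per window, ACGTG was held by 43.9% in the members, against 24.7% and 19.6%, and GCGTG by 57.9%, against 49% and 32.4%. Of the 6 genes called for Laponite, Pgk1, Ldha, Pgam1 and Pdk1 held either motif, as did 66.3% of tested genes. A match describes letters, not a bound site, and a link between motif and call was not tested.

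The counts for other genes of the same pathways stand beside 27.4% of all genes called higher and 27.6% lower for the gel effect. Of 17 tested genes on a list of 30 further isoforms and partners of glucose entry and glycolysis, 4 rose and 3 fell for the gel effect, with a median of -0.02. The risen were the enolase copy Eno1b (log2 0.71), Bsg (0.61) and Emb (0.62), whose proteins escort lactate transporters to the membrane, and Gpd2 (0.26) of the glycerol phosphate shuttle. Slc2a10, a facilitative glucose transporter, fell by 0.53. Slc2a12 and Gpd1, named after their values were seen, fell as well, and all 3 were under 4 CPM in every library. Of 17 tested genes of mitochondrial pyruvate use, 11 rose and 1 fell, with a median of 0.20. Got2, the mitochondrial aspartate aminotransferase, rose by 0.41, the malic enzyme Me2 by 0.47, citrate synthase Cs by 0.23 and Dld, a subunit of pyruvate dehydrogenase, by 0.30. Pcx, pyruvate carboxylase, was called in Gel/Laponite@IL-12 over Gel/IL-12, with 62.3, 65.2 and 60.4 CPM against 51.1, 51.6 and 51.9 CPM in Gel/IL-12 (log2 0.28, SE 0.06, adjusted p = 0.0338). The one that fell for the gel effect was Pdp1, the phosphatase that switches pyruvate dehydrogenase back on. It had 37.1, 48.1 and 51.7 CPM in the lowest, median and highest gel library, against 120, 119 and 104 CPM in IR-Con, and fell by 1.29 on the log2 scale (SE 0.05, adjusted p = 7.68e-15) without overlap.

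Of 22 tested further glycogen genes, 6 rose and 6 fell, with a median of 0.02, shares close to the 27.4% and 27.6% of all genes. At 1.5-fold or more, 3 were called higher and 2 lower, against 10.8% and 10.3% of all genes. Log2 fold changes ran from -0.98 to 1.595. The glycogen genes named next were picked by the smallest adjusted p or a call between gels, and none of those 3 is among them. Gsk3b, the kinase that inhibits glycogen synthase, fell by 0.77 (SE 0.04, adjusted p = 5.19e-12), and Phka2 and Phka1, subunits of phosphorylase kinase, fell by 0.52 and 0.41. Pygm, the muscle phosphorylase, fell by 0.98 at 1.65 to 2.92 CPM in the gels and 3.46 to 5.16 CPM in IR-Con. Pgm2, a phosphoglucomutase gene, rose by 0.32 and was also called for the Laponite effect (log2 0.20, SE 0.04, adjusted p = 0.0118) and in Gel/Laponite over Gel (log2 0.32, adjusted p = 0.00666). Of 11 tested pentose phosphate and NADPH genes, 7 rose and 2 fell, with a median of 0.25. Prps1, which uses ribose phosphate for nucleotide synthesis, rose by 0.75, and Mthfd1 of folate metabolism by 0.59. Tktl1, a transketolase-like gene under 5 CPM in every library, fell by 1.84, the kinase gene Shpk fell by 0.71, and H6pd, the NADPH-making enzyme of the endoplasmic reticulum, rose by 0.43. All 3 tested gluconeogenesis genes of a list of 8 rose, namely the glucose 6-phosphate transporter Slc37a4 (log2 0.54), the mitochondrial PEP carboxykinase Pck2 (0.17) and the widely expressed phosphatase G6pc3 (0.17).

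Of 20 tested regulators of glucose use, 7 rose and 5 fell, with a median of 0.10, against 27.4% and 27.6% of all genes. Hif1a, the oxygen-regulated subunit of HIF, had 411, 445 and 465 CPM in the lowest, median and highest gel library, against 291, 282 and 220 CPM in IR-Con, and rose by 0.73 (SE 0.06, adjusted p = 1.32e-09). Its groups did not overlap. Egln1, a prolyl hydroxylase that marks HIF for destruction and is itself a HIF target, rose by 0.41 and was called for the Laponite effect (log2 0.24, SE 0.05, adjusted p = 0.0118) and in Gel/Laponite over Gel (log2 0.41, adjusted p = 0.00578). Egln3, the hydroxylase most inducible by HIF and named here after its value was seen, rose by 1.63 (SE 0.23, adjusted p = 3.19e-06), at 3.93 to 7.69 CPM in the gels and 0.911 to 2.85 CPM in IR-Con. The arrestin-like genes Txnip and Arrdc4, both known targets of glucose-sensing MondoA and both brakes on glucose uptake, went opposite ways. Txnip fell by 0.72 (SE 0.03, adjusted p = 1.46e-13), with 487, 507 and 546 CPM in the gels, against 852, 878 and 806 CPM in IR-Con. Arrdc4 rose by 1.10 (SE 0.06, adjusted p = 6.13e-13), with 101, 107 and 121 CPM in the gels, against 46.2, 55.9 and 50.5 CPM in IR-Con. Myc, a transcription factor that drives glycolytic genes, rose by 0.49. The others called are named after their values were seen. Ppargc1a, a coactivator of mitochondrial genes, fell by 0.75, Arnt, the partner subunit of HIF, by 0.25, Mlxip, which encodes MondoA, by 0.25, and Hif1an, an asparagine hydroxylase that inhibits HIF, by 0.24. Epas1, which encodes HIF-2α, rose by 1.00, and Esrra, a nuclear receptor, by 0.38.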

How the data were processed

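Mouse BM-MSCs (C57BL/6) received 5 Gy and were collected after 48 h, with 3 RNA-seq libraries for each of 5 groups. The authors deposited 1 table of raw read counts per gene and library, without normalization. The labels name the build mm10 (GRCm38). The aligner and counter are not given in the sources used here. The table also holds 15 FPKM columns, group means and the fold changes and p-values of the authors' own comparisons, none of which were used. Coordinates and exon lengths came from GENCODE M21 by gene identifier, and promoters from RefSeq GRCm38.p6.

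Library totals were 14506459 to 17818982. Genes were filtered with filterByExpr (minimum count 10, minimum total 15), scaled by TMM and fitted over all 15 libraries with edgeR 4.0.16 (R 4.3.3, quasi-likelihood, robust, 10 residual degrees of freedom). The model had a mean for each group, and 14 contrasts were tested two-sidedly. The Benjamini and Hochberg adjustment ran over the 15590 genes of each contrast, and an adjusted p under 0.05 was called. CPM used TMM library sizes. RPKM used merged exon length, which understates genes with many transcripts. Shared sequence was measured in windows of 50 bases, and copies holding 10% of a member's windows were summed. Alternatives used DESeq2 1.42.0 (its size factors, its Wald test), limma 3.58.1 (voom with a weight for IR-Con and for the gels), no filter, fewer libraries, a replicate block and summed copies.

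The members, lists and tests were chosen with earlier results of these data known. Library values are given in full, or as the lowest, median and highest gel library, for the members with the highest and lowest gel effect in each role and for those called between gels. Of each related list, up to 5 genes with the smallest adjusted p and any called between gels are named, with exceptions marked.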

Additional observations from a re-analysis of the deposited data

How the results depend on the processing

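Over all 14 contrasts, 8137 values of members kept their side of the threshold under an alternative, 198 passed it and 193 lost it. None of the 2943 values whose change was called in edgeR turned its sign, and 197 of the 5585 whose change was not called did. Counts of called members that moved by over 1.5 times are given by setting, with the share of all genes called in brackets, and the cause was not tested except where fewer libraries or a fold minimum define the setting. With limma voom, members called lower were 3 for the gel effect (16.5%), 3 for Gel/IL-12 over IR-Con (15.8%), 3 for Gel/Laponite@IL-12 over IR-Con (14.6%), 12 for the interaction (1.03%) and 2 for Gel/Laponite@IL-12 over Gel/Laponite (0.16%). Members called higher were 17 for the Laponite effect (2.19%), 14 for Gel/Laponite@IL-12 over Gel (1.15%), 12 for Gel/IL-12 over Gel (0.43%), 17 for Gel/Laponite over Gel (1.83%) and 7 for Gel/Laponite over Gel/IL-12 (0.699%). With only the libraries compared, members called lower were 3 for Gel/IL-12 over IR-Con (15.7%), 3 for Gel/Laponite@IL-12 over IR-Con (14.3%), 14 for the interaction (2.29%), 1 for Gel/Laponite over Gel (Pygb, 2.42%) and 4 for Gel/Laponite@IL-12 over Gel/Laponite (0.549%). Members called higher were 2 for the IL-12 effect (0.263%), 18 for the Laponite effect (2.91%), 15 for Gel/Laponite@IL-12 over Gel (1.78%), 14 for Gel/IL-12 over Gel (2%), 19 for Gel/Laponite over Gel (3.3%), 1 for Gel/Laponite@IL-12 over Gel/IL-12 (2.39%) and 9 for Gel/Laponite over Gel/IL-12 (1.19%). DESeq2 called 2 lower for the interaction (0.0513%), 7 higher for Gel/Laponite@IL-12 over Gel (0.378%), 1 for Gel/IL-12 over Gel (0.0449%) and 1 for Gel/Laponite over Gel/IL-12 (0.109%). Without the filter, 3 were lower for the interaction (0.0438%) and 1 higher for Gel/IL-12 over Gel (0.025%). The 1.5-fold minimum left 2 lower for the gel effect.

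Leaving out 1 library gave 31 to 34 higher (25.7% to 29.2% of all genes) and 5 to 6 lower (25% to 28.8%) for the gel effect. It gave 2 to 4 higher for the Laponite effect (0.243% to 0.331%) and 0 for Gel/Laponite@IL-12 over Gel (0.0934% to 0.112%). For Gel/Laponite over Gel it gave 4 to 6 higher, against 8 with all libraries (0.263% of all genes). Members called lower for Gel/Laponite@IL-12 over IR-Con were 3 to 5 (17.2% to 24.5%), with 3 without Gel/Laponite@IL-12 replicate 1 or 2. Over all genes, the median gel effect on the log2 scale lay between -0.015 and 0.052 under every setting run on all 15 libraries. The lowest was with DESeq2 size factors and with DESeq2, and the highest without the filter on low counts.

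The replicate numbers did not pair the libraries. Over 30 same-numbered pairs, the correlation of deviations from the group means was -0.07 to 0.04, and 2 of 15 libraries were closest to their own number. With the replicate number as a block, the gel effect had 34 higher (27.3% of all genes) and 6 lower (26.8%). In that fit the Laponite effect was called higher for 5 members (0.436%, Gys1 adjusted p = 0.0738). Gel/Laponite over Gel was called for 8, the same number as without the block (0.263% of all genes there). Gel/Laponite@IL-12 over Gel was called for 3 (0.186%).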
